A study of Mus musculus with 6 samples.

Results

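Cholesterol and fatty acid synthesis was followed in regulatory T (Treg) cells through 34 listed genes, which encode 18 enzymes of the sterol pathway, 6 factors of its control and transport and 10 enzymes of fatty acid synthesis, elongation and desaturation. The list was fixed by gene symbol, and each gene was read from the brightest Affymetrix probe set that carried its symbol alone. Of the 34 genes 32 were measured, among 12394 genes in all, and Acat2 and Insig1 were not analysed here. The cells were sorted as CD4+CD25+YFP+ from spleen and lymph nodes of mice in which YFP and Cre are expressed from the Foxp3 locus. Mice of the genotype Gata3F/FFoxp3YFP-Cre gave the 3 arrays labelled Gata3-deficient, called deficient below. Mice with 1 floxed and 1 intact Gata3 allele, Gata3F/+Foxp3YFP-Cre, gave the 3 arrays labelled Gata3-sufficient and titled WT, called sufficient below. Both groups therefore carry the Cre, and the sufficient cells can lose 1 allele. The design text gives 3 mice a group, and the sources used here give neither their age nor the part of Gata3 that is floxed.

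Array medians lay between 6.06 and 6.11 log2 units. The single Gata3 probe set read 9.83, 9.98 and 9.71 on deficient arrays, against 9.57, 9.41 and 9.47 on sufficient arrays. It was thus higher where a loss was labelled (log2 change 0.35 ± 0.07, SE, adjusted p = 0.0387 by limma), and a probe set outside the deleted part would check nothing, so every direction below rests on the labels. The T cell marker Cd3d read 12.83, 12.86 and 12.85 on deficient arrays, against 12.87, 12.82 and 12.80 on sufficient arrays. Foxp3 read between 3.82 and 4.06 on all 6 arrays, among the dim genes (those below the 40th percentile of gene means), so this probe set did not mark the cells as Treg cells, while the Treg markers Ctla4 and Il2ra read between 11.75 and 12.10 and between 8.81 and 9.13.

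Cells build cholesterol from acetyl-CoA by way of mevalonate, isoprenoids and squalene, and the same acetyl-CoA feeds fatty acid synthesis. Both branches are controlled by SREBP transcription factors, which Scap escorts out of the endoplasmic reticulum when sterols are low and which Insig proteins hold back when sterols are high. T cells raise both branches as they are activated, and products of the mevalonate branch are used for protein prenylation as well as for membranes.

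Promoters of this pathway are known for sterol response elements, bound by SREBPs, beside CCAAT boxes, bound by NF-Y. Windows of 300 bases, 250 before and 50 after a RefSeq start site (GRCm38.p6), were on hand for 27 of the 34 members. The windows of 4 genes are shown, those of Hmgcs1, Idi1 and Cyp51 because these vary most over the arrays among sterol enzymes beside Sqle, and that of Fasn for the fatty acid branch. Capitals mark the response element letters TCACNCCAC and the letters CCAAT, each searched on both strands, so that ATTGG is CCAAT read from the other strand.
Hmgcs1: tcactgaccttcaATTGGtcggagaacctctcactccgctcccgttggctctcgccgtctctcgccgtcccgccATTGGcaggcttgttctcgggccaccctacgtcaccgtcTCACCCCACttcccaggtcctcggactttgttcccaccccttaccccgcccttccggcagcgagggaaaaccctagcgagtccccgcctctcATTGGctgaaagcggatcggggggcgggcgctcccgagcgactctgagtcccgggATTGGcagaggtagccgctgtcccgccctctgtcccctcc
Idi1: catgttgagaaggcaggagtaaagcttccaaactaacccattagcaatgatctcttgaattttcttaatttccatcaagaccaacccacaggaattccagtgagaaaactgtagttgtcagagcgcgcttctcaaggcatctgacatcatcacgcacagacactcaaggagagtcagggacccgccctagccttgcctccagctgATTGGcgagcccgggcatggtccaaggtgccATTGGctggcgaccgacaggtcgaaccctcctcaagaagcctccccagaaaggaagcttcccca
Cyp51: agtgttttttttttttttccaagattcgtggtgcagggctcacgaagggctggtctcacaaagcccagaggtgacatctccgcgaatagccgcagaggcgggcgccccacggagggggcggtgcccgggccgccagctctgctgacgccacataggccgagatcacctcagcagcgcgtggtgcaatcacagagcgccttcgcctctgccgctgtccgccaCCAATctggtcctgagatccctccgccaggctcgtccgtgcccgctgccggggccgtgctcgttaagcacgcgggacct
Fasn: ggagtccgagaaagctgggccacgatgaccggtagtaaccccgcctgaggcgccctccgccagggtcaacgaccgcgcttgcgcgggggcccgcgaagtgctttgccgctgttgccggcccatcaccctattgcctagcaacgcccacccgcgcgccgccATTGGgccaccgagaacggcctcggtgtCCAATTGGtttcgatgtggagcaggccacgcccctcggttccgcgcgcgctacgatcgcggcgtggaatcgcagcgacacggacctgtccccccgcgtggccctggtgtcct
The windows lie at chr13:119690101-119690400 on the plus strand for Hmgcs1, chr13:8885356-8885655 on the plus strand for Idi1, chr5:4104648-4104947 on the minus strand for Cyp51 and chr11:120824498-120824797 on the minus strand for Fasn. The strict response element occurred in 1 of the 27 members, Hmgcs1, at positions -137 to -129 from its start, and in 1.44% of all 27025 genes in the table. CCAAT occurred in 22 of the 27 members, and in 14 of 15 sterol pathway enzymes, against 4 of 7 fatty acid pathway enzymes and 41.1% of all genes. In Fasn 2 of the 3 matches overlap. A match is a string of letters, not a shown binding site, and no match says nothing of the factor.

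None of the 32 members passed the threshold in either direction (limma, adjusted p under 0.05 over all genes), where 2.21% of all genes passed, 1.44% being higher and 0.766% lower in deficient arrays. At an unadjusted p under 0.05, 4 members were higher (Pmvk, Fdps, Fasn and Scd2) and 0 lower, against 8.63% and 5.8% of all genes. The change was positive in 25 of 32 members, with a median log2 change of 0.10, against 6570 of 12394 genes and a median of 0.0078. In 8 members every deficient array lay above every sufficient array, and in 0 members below, against 11.3% and 8.51% of all genes. These 8 were Pmvk, Fdps, Sqle, Ebp, Scap, Stard4, Fasn and Scd2. The margin was narrow in several of them. The lowest deficient and highest sufficient values were 7.36119 and 7.36106 for Stard4, 7.160 and 7.146 for Pmvk, and 9.117 and 9.102 for Ebp. The largest change was in Sqle and amounted to 1.32-fold. RNA came from whole sorted populations, in which a change in the share of expressing cells and a change per cell cannot be told apart.

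**Figure D1:**
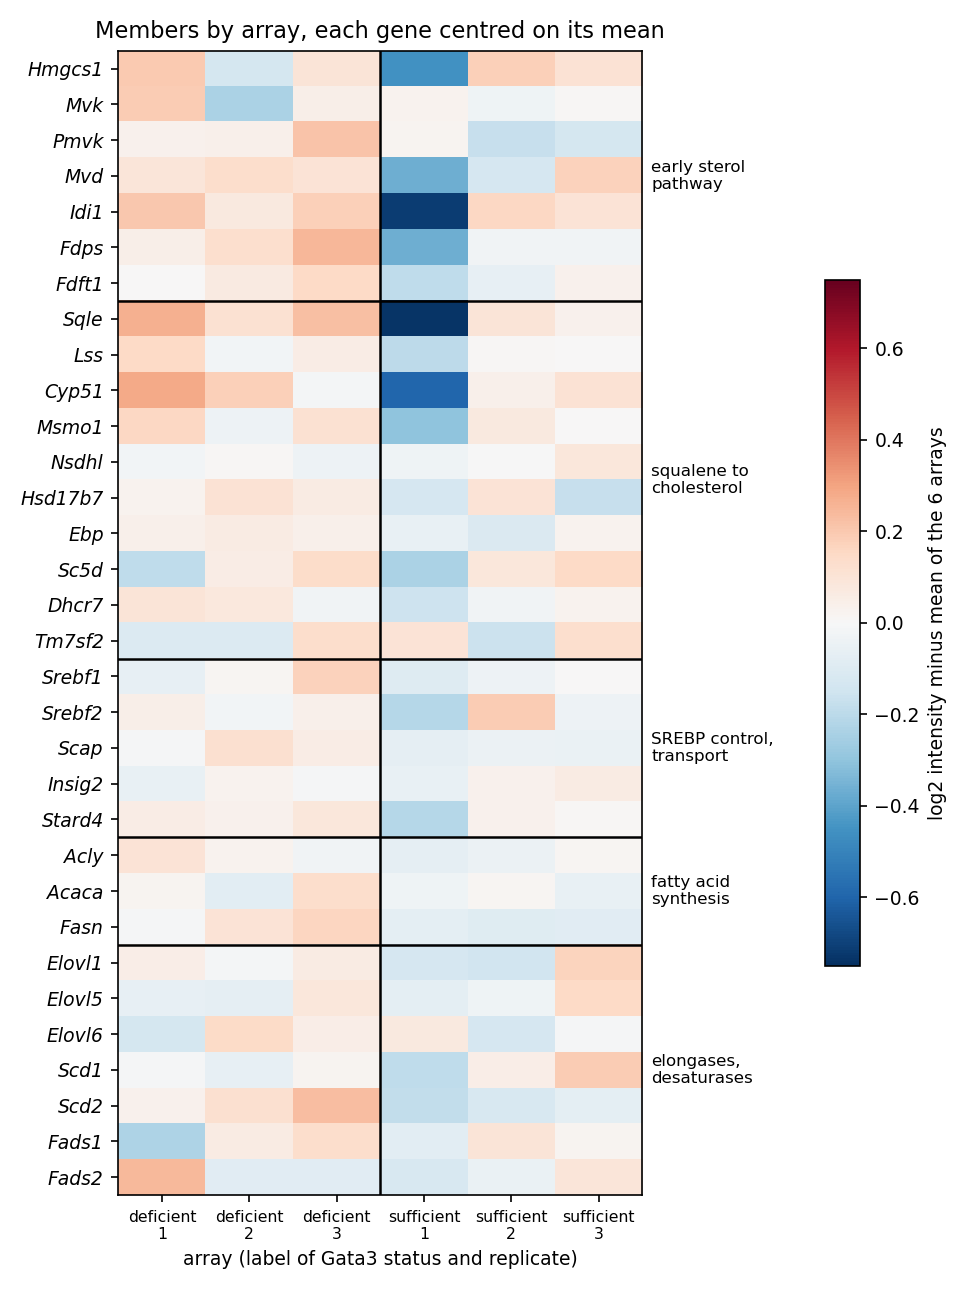
Log2 intensity of the 32 measured members (rows, by role) on the 6 arrays (columns), each gene with its mean over the arrays subtracted. Colour runs from blue (below the mean) to red (above it), and sufficient replicate 1 is the lowest array in 21 of the 32 rows, 11 of them sterol pathway enzymes.

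The sterol enzymes varied most on 1 array. Sufficient replicate 1 was the lowest of the 6 arrays in 11 of 17 sterol pathway enzymes, in 5 of 5 members of SREBP control and transport and in 5 of 10 fatty acid pathway enzymes, against 17.0% of all genes. It was the highest array in 0 of the 32 members, against 19.2% of all genes. This array is left out below in view of these values. Where it is the lowest array, the change without it has to be lower. The count was repeated over every probe set of the members. Among those of sterol enzymes not dim, that array was lowest in 17 of 25, against 4 of 14 for fatty acid enzymes. Of all probe sets named for 1 gene and not dim, the share was 17.4%. This count is not independent of the first, since it shares probe sets with it and adds others of the same genes.

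The early sterol pathway leads from acetyl-CoA to squalene, and 6 of its 7 measured members had a positive change (median 0.19, and 0.08 without sufficient replicate 1). Fdps, which makes the farnesyl diphosphate from which both sterols and prenyl groups derive, read 7.02, 7.10 and 7.22 on deficient arrays, against 6.602, 6.95 and 6.95 on sufficient arrays. The groups did not overlap, and the lowest value was that of sufficient replicate 1. The log2 change was 0.28 ± 0.10 (SE, 95% interval 0.04 to 0.51, adjusted p = 0.246 by limma), and without that array it was 0.17 ± 0.09 (adjusted p = 0.473). Pmvk, the kinase that turns phosphomevalonate into its diphosphate, read 7.16, 7.16 and 7.34 on deficient arrays, against 7.15, 6.95 and 6.997 on sufficient arrays. The groups did not overlap, and sufficient replicate 1 was here the highest of its group. Its change was 0.19 ± 0.08 (adjusted p = 0.332) and 0.25 ± 0.09 without that array.

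Idi1, the isomerase that makes the second of the pair of building blocks for isoprenoids, read 8.05, 7.92 and 8.02 on deficient arrays, against 7.13, 8.001 and 7.95 on sufficient arrays. A single array lay 0.84 below the mean of the other two in its group, and the remaining 5 lay between 7.92 and 8.05. The change of 0.30 ± 0.19 (adjusted p = 0.537) was 0.02 ± 0.07 without it and 0.46 without sufficient replicate 2. The second Idi1 probe set had the same shape, at 5.98, 6.01 and 5.90 on deficient arrays, against 4.82, 6.18 and 6.12 on sufficient arrays. Hmgcs1, which makes the substrate from which mevalonate is formed, was chosen after its values were seen. It read 8.93, 8.601 and 8.83 on deficient arrays, against 8.28, 8.91 and 8.84 on sufficient arrays, and the groups overlapped. Its change of 0.11 ± 0.15 turned to -0.09 ± 0.09 without sufficient replicate 1, and that array was the lowest on all 4 Hmgcs1 probe sets.

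Mvd, the decarboxylase that ends the mevalonate steps, read 6.26, 6.31 and 6.28 on deficient arrays, against 5.81, 6.05 and 6.35 on sufficient arrays. Its deficient arrays were close together and its sufficient arrays spread on both sides of them. The change was 0.21 ± 0.13 (adjusted p = 0.503), against 0.085 without sufficient replicate 1 and 0.35 without sufficient replicate 3. It was -0.04 on its other probe set, which is used when probe sets ending in _s_at or _x_at, designs that may hybridise with related transcripts, are removed. Fdft1, squalene synthase, the first step given over to sterols, read 8.09, 8.15 and 8.23 on deficient arrays, against 7.89, 8.02 and 8.11 on sufficient arrays. The groups overlapped by 1 sufficient array, with a change of 0.15 ± 0.07 (adjusted p = 0.383) that was 0.09 ± 0.07 without sufficient replicate 1, its lowest array. Mvk, mevalonate kinase, had group means of 5.73 ± 0.22 in deficient and 5.73 ± 0.03 in sufficient arrays (SD, n = 3 each).

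Between squalene and cholesterol, the change was above 0 in 8 of 10 enzymes and its median was 0.11, while without sufficient replicate 1 it was above 0 in 7 of 10 and its median was 0.05. Sqle, squalene epoxidase, which catalyses a rate-controlling step of the pathway, had the widest spread over arrays of all members. It read 7.27, 7.12 and 7.23 on deficient arrays, against 6.27, 7.10 and 7.04 on sufficient arrays. The groups were separate by a narrow margin, and sufficient replicate 1 lay 0.80 below the mean of the other two in its group. The change of 0.40 ± 0.19 (95% interval -0.01 to 0.82, adjusted p = 0.362) was 0.14 ± 0.08 without that array (adjusted p = 0.539). Cyp51, the lanosterol demethylase, read 7.29, 7.18 and 6.99 on deficient arrays, against 6.41, 7.05 and 7.11 on sufficient arrays. Again the low value was that of sufficient replicate 1, and the groups overlapped with and without it. The change was 0.30 ± 0.17 with all arrays and 0.08 ± 0.10 without that one.

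Msmo1, the methylsterol monooxygenase, read 7.64, 7.44 and 7.60 on deficient arrays, against 7.18, 7.55 and 7.49 on sufficient arrays. The groups overlapped, with a change of 0.15 ± 0.10 (adjusted p = 0.567) that was 0.04 ± 0.08 without sufficient replicate 1. Ebp, a sterol isomerase, read 9.12, 9.14 and 9.12 on deficient arrays, against 9.02, 8.97 and 9.10 on sufficient arrays. It had groups that did not overlap and a small change of 0.09 ± 0.05, nearly the same without sufficient replicate 1 (0.09 ± 0.06). The remaining enzymes were Lss (lanosterol synthase), Nsdhl (a sterol dehydrogenase), Hsd17b7 (a sterol ketoreductase), Sc5d (a sterol desaturase) and the sterol reductases Dhcr7 and Tm7sf2. Their changes lay between -0.05 (Tm7sf2) and 0.13 (Hsd17b7), all with overlapping groups. Sufficient replicate 1 was the lowest array for Lss, Sc5d and Dhcr7, and without it their changes were 0.055, -0.12 and 0.054. The change of Hsd17b7 was 0.22 without sufficient replicate 2 and 0.08 without sufficient replicate 3.

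**Figure D2:**
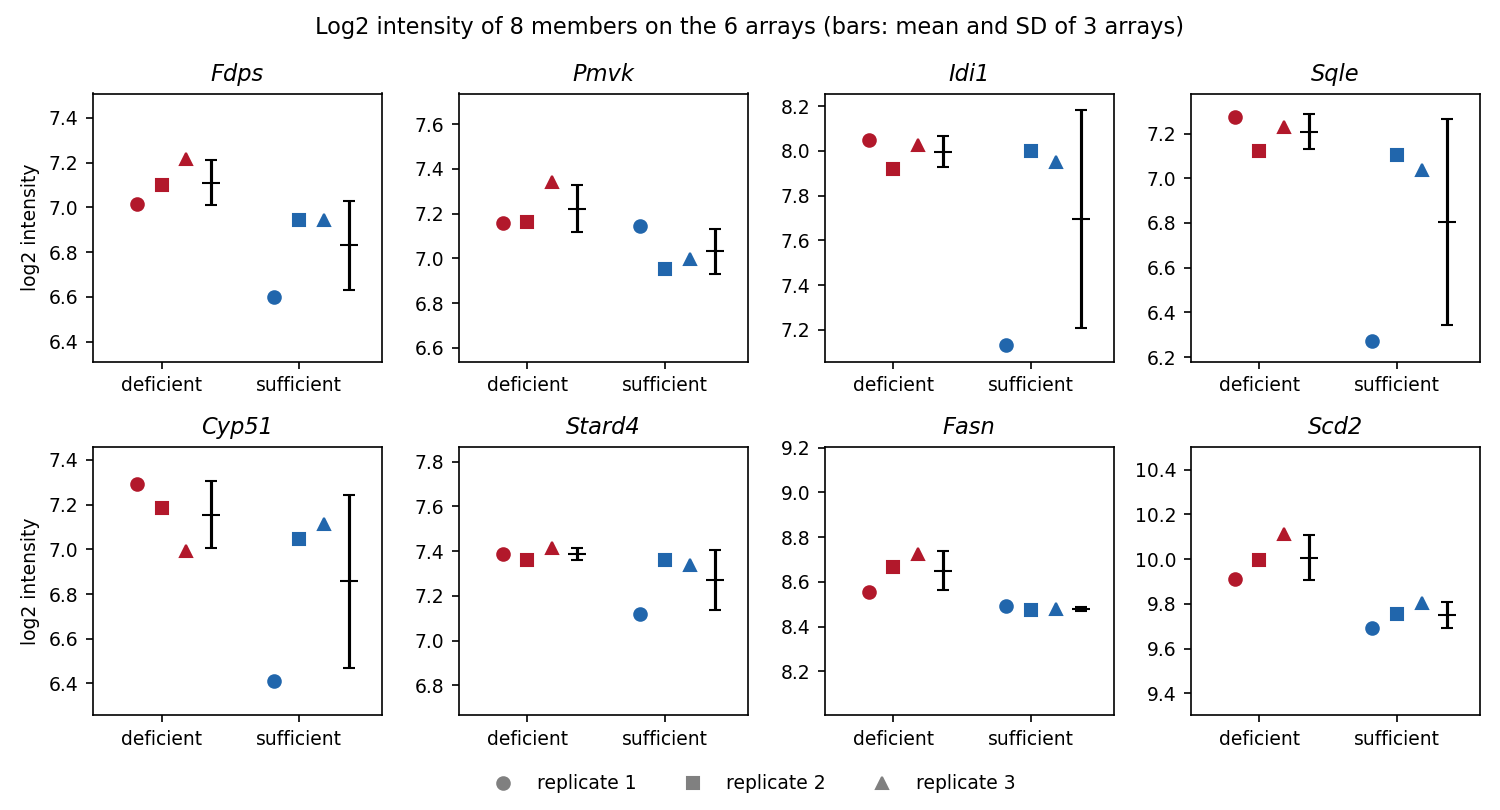
Log2 intensity (y axis, 1.2 log2 units in every panel) of 8 members on deficient (red) and sufficient (blue) arrays. Symbols mark the replicate number and bars the mean and SD of 3 arrays. Sufficient replicate 1 lies far below all other arrays for Idi1, Sqle and Cyp51, but no more than 0.09 from the mean of the other two in its group for Fasn and Scd2.

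Among the factors of SREBP control and transport the changes were small, from -0.02 to 0.11. Scap, the escort of SREBPs, read 8.57, 8.69 and 8.63 on deficient arrays, against 8.51, 8.53 and 8.52 on sufficient arrays. The groups did not overlap, and the change of 0.11 ± 0.05 (adjusted p = 0.387) was 0.10 ± 0.06 without sufficient replicate 1. Stard4, a sterol carrier and known SREBP target, read 7.39, 7.36 and 7.42 on deficient arrays, against 7.12, 7.36 and 7.34 on sufficient arrays. The low array was once more sufficient replicate 1, and the change of 0.11 ± 0.08 was 0.04 ± 0.07 without it.

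The genes of the SREBPs themselves had overlapping groups. Srebf2, whose product drives the sterol branch, read 7.86, 7.80 and 7.86 on deficient arrays, against 7.60, 8.01 and 7.78 on sufficient arrays. Sufficient replicates 1 and 2 were its lowest and highest arrays, and the change was 0.04 ± 0.09 (adjusted p = 0.899). Srebf1, whose product drives mainly the fatty acid branch, read 8.62, 8.70 and 8.86 on deficient arrays, against 8.59, 8.65 and 8.69 on sufficient arrays. Its change was 0.09 ± 0.07 (adjusted p = 0.639), with 0.14 without deficient replicate 1 and 0.020 without deficient replicate 3. Insig2, which retains the SREBP and Scap complex, spanned 0.12 over all 6 arrays.

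In fatty acid synthesis Fasn separated the groups. Fasn, fatty acid synthase, read 8.55, 8.67 and 8.73 on deficient arrays, against 8.49, 8.47 and 8.48 on sufficient arrays. The sufficient arrays lay close together (SD 0.01), and all deficient arrays were above them. The change was 0.17 ± 0.06 (95% interval 0.04 to 0.30, adjusted p = 0.189) and 0.17 ± 0.07 without sufficient replicate 1. Acly, which releases acetyl-CoA from citrate in the cytosol, read 10.42, 10.34 and 10.29 on deficient arrays, against 10.25, 10.27 and 10.34 on sufficient arrays. The groups overlapped, and its change was 0.07 ± 0.05 on this probe set and -0.01 on the next brightest. Acaca, acetyl-CoA carboxylase, the enzyme of the committed step, was dim, at 4.01, 3.91 and 4.13 on deficient arrays, against 3.96, 4.003 and 3.93 on sufficient arrays.

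Scd2, a stearoyl-CoA desaturase that makes monounsaturated fatty acids, came nearest to the threshold of all members. It read 9.91, 9.998 and 10.11 on deficient arrays, against 9.69, 9.76 and 9.81 on sufficient arrays. Every deficient array was above every sufficient one, by a change of 0.26 ± 0.06 (1.19-fold, 95% interval 0.12 to 0.39, adjusted p = 0.0592 by limma). Scd2 passed in 5 of 15 alternatives, among them array quality weights (adjusted p = 0.0142) and the fit without deficient replicate 1 (0.30, adjusted p = 0.0358), and the adjusted p over the 15 lay between 0.0142 and 0.614. The highest came from the mean of its 3 probe sets, whose change was 0.10. The other 2 probe sets of Scd2 each had a change of 0.02, and 1 of them is dim.

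On their brightest probe sets, elongases and the other desaturases showed no separation. Elovl1, an elongase of long saturated chains, read 8.98, 8.92 and 8.99 on deficient arrays, against 8.81, 8.79 and 9.10 on sufficient arrays, with a change of 0.06 ± 0.08. The change was -0.11 with probe sets ending in _x_at or _s_at removed. The probe set then used read 6.90, 6.91 and 6.90 on deficient arrays, against 7.01, 7.04 and 6.99 on sufficient arrays. There every deficient array lay below every sufficient one. Elovl5, an elongase of polyunsaturated chains, read 11.11, 11.10 and 11.26 on deficient arrays, against 11.10, 11.14 and 11.32 on sufficient arrays. Elovl6, which lengthens palmitate, read 6.57, 6.84 and 6.75 on deficient arrays, against 6.77, 6.57 and 6.69 on sufficient arrays. On the brightest probe sets the groups overlapped for all 3 elongases. Scd1, Fads1 and Fads2, the last 2 being desaturases of polyunsaturated chains, had changes from -0.03 to 0.05, and Scd1 and Fads2 were dim.

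**Figure D3:**
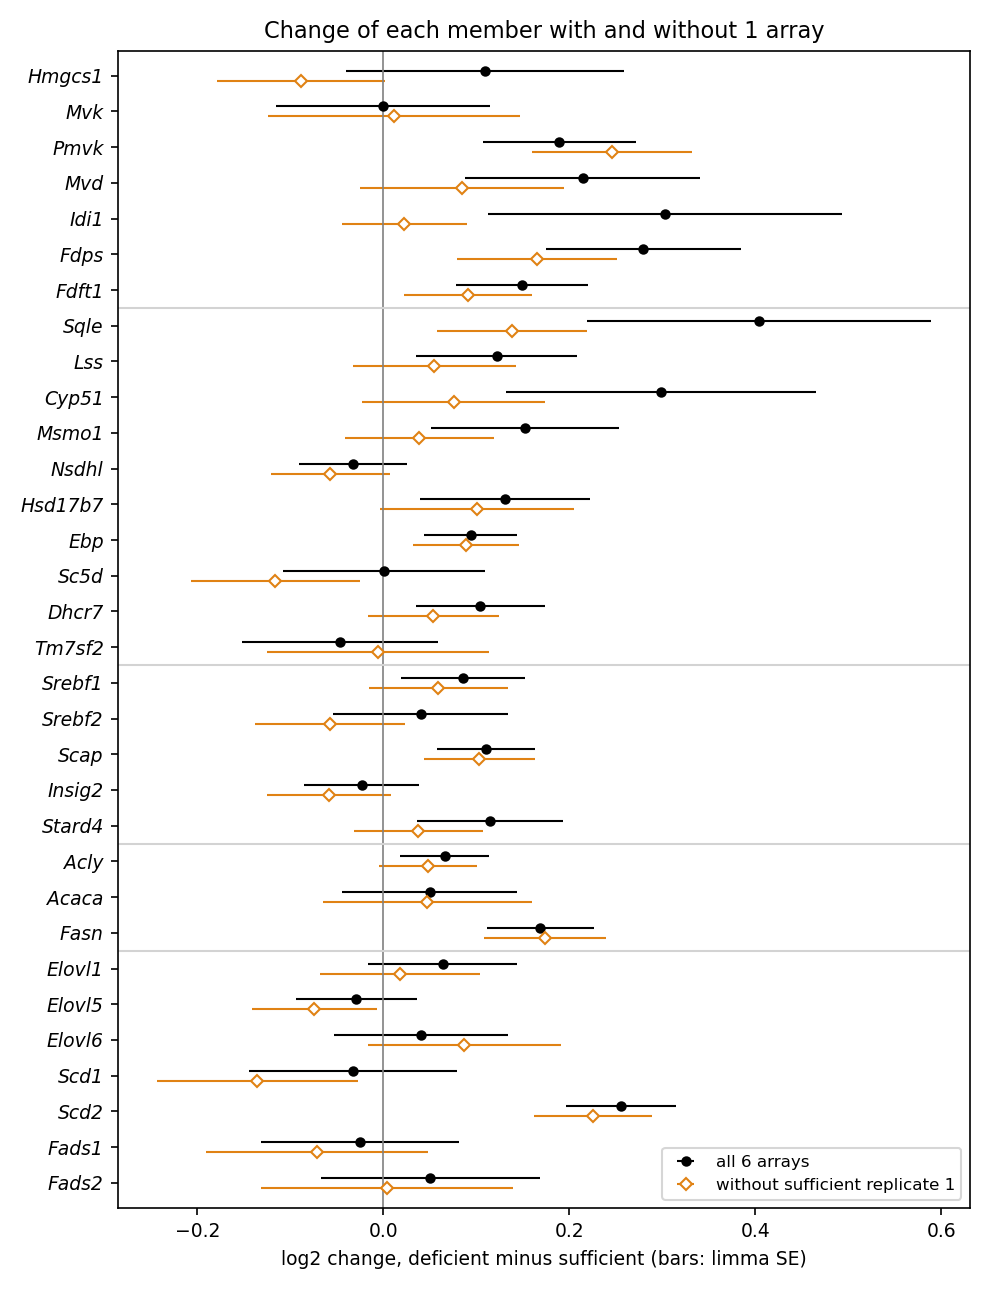
Log2 change (x axis, deficient minus sufficient, bars are limma standard errors) of each measured member with all 6 arrays (black) and without sufficient replicate 1 (orange). That array is the lowest for Sqle, Idi1 and Cyp51, so their changes have to be lower without it, and they move to 0.14, 0.02 and 0.08. That array is also the lowest for Scd2, which moves from 0.26 to 0.23. It is not the lowest for Fasn, which is at 0.17 with and without it.

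The branches were then set side by side. For each array the member values, each centred on its gene mean, were averaged. The 17 sterol pathway enzymes averaged 0.09, 0.03 and 0.10 on deficient arrays, against -0.26, 0.00084 and 0.04 on sufficient arrays. The 10 fatty acid pathway enzymes averaged 0.00026, 0.01 and 0.08 on deficient arrays, against -0.09, -0.04 and 0.04 on sufficient arrays. Both averages overlapped between the groups, and both were lowest on sufficient replicate 1. The sterol minus fatty acid difference was 0.09, 0.02 and 0.02 on deficient arrays, against -0.17, 0.05 and -0.0028 on sufficient arrays. It averaged 0.04 ± 0.04 in deficient and -0.04 ± 0.11 in sufficient arrays (SD, n = 3 each), and the groups overlapped.

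The median change was 0.13 in the sterol enzymes and 0.05 in the fatty acid enzymes. Without sufficient replicate 1 these medians were 0.05 and 0.03. The fatty acid median was also 0.03 without sufficient replicate 2 and 0.08 without deficient replicate 2. Without sufficient replicate 1 the change was above 0 in 23 of 32 members, with a median of 0.05, against 6702 of 12394 genes and a median of 0.01.

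Marker lists of other cell states were read on the same arrays. Of 16 proliferation markers 6 rose and 0 fell, against 1.44% and 0.766% of all genes. Those that rose were Top2a, Rrm2, Mki67, Birc5, Ccnb2 and Aurkb, with changes between 0.52 (Aurkb) and 0.79 (Birc5). The centred average of all 16 was 0.13, 0.16 and 0.27 on deficient arrays, against -0.17, -0.33 and -0.07 on sufficient arrays. The lowest array for proliferation was sufficient replicate 2, and sufficient replicate 1 also lay below every deficient array. Of 8 neutrophil markers 0 passed the threshold, and their average was -0.10, 0.15 and 0.55 on deficient arrays, against -0.27, -0.20 and -0.12 on sufficient arrays. Of 12 myeloid and dendritic markers 0 passed. Their average was -0.06, 0.15 and 0.26 on deficient arrays, against -0.05, -0.18 and -0.13 on sufficient arrays. The change was positive in 8 of 8 neutrophil and 11 of 12 myeloid and dendritic markers, against 53.0% of all genes. It lay between 0.01 and 1.10 and between -0.10 and 1.02. At an unadjusted p under 0.05 in limma 2 and 3 were higher and 0 lower, against 8.63% and 5.8% of all genes. Deficient replicate 3 was the highest array for the neutrophil, the myeloid and dendritic and the proliferation averages. Among members it was the highest for Pmvk, Fdps, Fdft1, Tm7sf2, Srebf1, Stard4, Acaca, Fasn, Scd2 and Fads1. All 8 neutrophil markers and 6 of the 12 myeloid and dendritic markers were dim. Of 8 B cell markers 1 rose (Cd22) and 5 were dim, of 10 Treg markers 1 rose (Tnfrsf4) and 1 fell (Nrp1), and of 7 T cell, 2 CD8 T cell and 2 erythroid markers 0 passed. The part of these markers in the members' values was not tested.

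**Figure D4:**
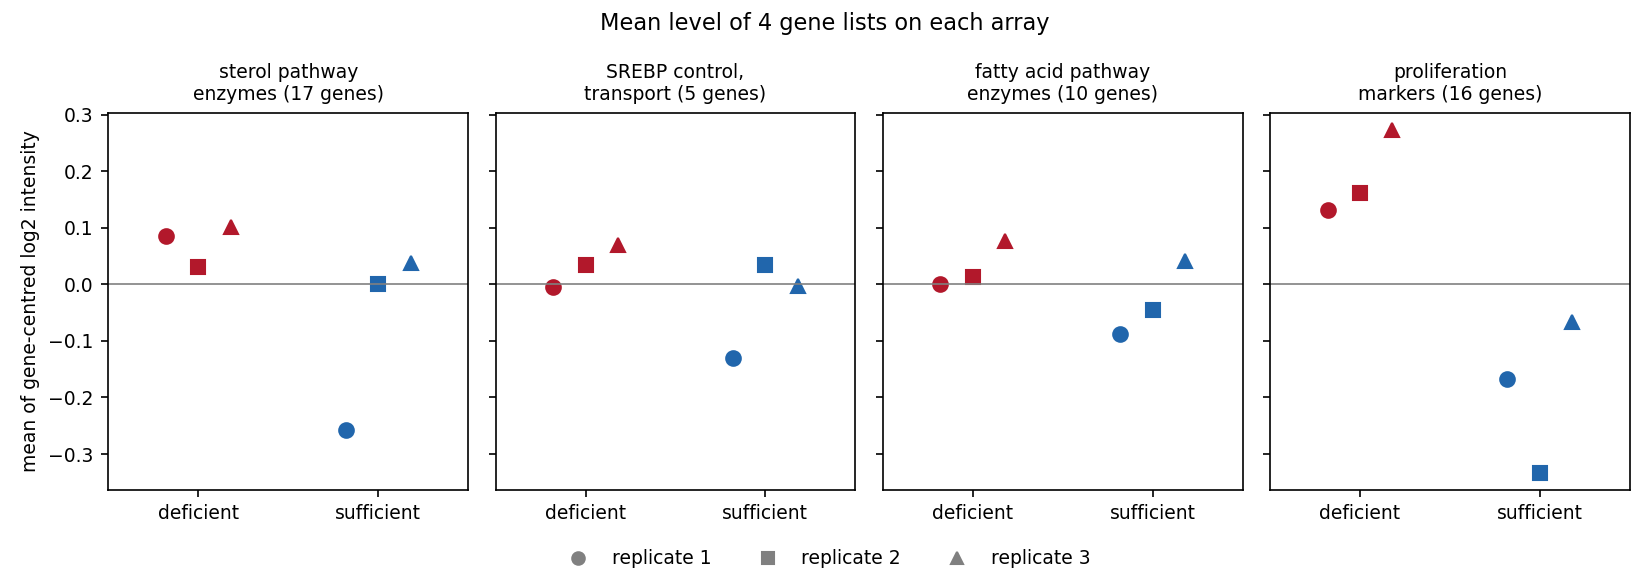
Mean of gene-centred log2 intensities (y axis) for 4 gene lists on deficient (red) and sufficient (blue) arrays, with symbols for the replicate number. The sterol pathway average is lowest on sufficient replicate 1 at -0.26. The proliferation average is -0.17 on that array, is lowest on sufficient replicate 2 at -0.33, and does not overlap between the groups.

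Of 78 further genes of sterol and fatty acid metabolism 60 were measured, and 1 rose and 0 fell, against 1.44% and 0.766% of all genes. Fabp5, which encodes a carrier of fatty acids in the cytosol, read 9.53, 9.78 and 9.84 on deficient arrays, against 8.86, 8.91 and 9.04 on sufficient arrays. It rose 1.71-fold (log2 change 0.78 ± 0.08, SE, adjusted p = 0.00183 by limma), and its call was not lost in any alternative. Acss2, which makes acetyl-CoA from acetate for the same synthesis, read 7.48, 7.10 and 7.21 on deficient arrays, against 8.21, 7.84 and 7.65 on sufficient arrays. Its groups did not overlap, and its change of -0.64 ± 0.14 fell short of the threshold (adjusted p = 0.0518) but passed in 7 of 15 alternatives. Acss2 was highest on sufficient replicate 1. Of the 23 measured genes of other fatty acid synthesis and activation, the list that holds both, 1 rose (Fabp5) and 0 fell. The median was -0.06, and 14 of the 23 were dim.

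Sterol uptake and efflux gave no calls. Mylip, the ubiquitin ligase through which sterol-sensing LXR receptors lower sterol uptake, read 9.09, 9.46 and 9.46 on deficient arrays, against 10.06, 9.82 and 9.66 on sufficient arrays. Its groups did not overlap, with a change of -0.52 ± 0.12 (adjusted p = 0.0549) that was -0.41 without sufficient replicate 1. Of the 8 measured genes of uptake, storage and movement 0 passed, with a median of -0.03, and Osbp, an oxysterol-binding protein, had the second smallest p (-0.08 ± 0.05). Of 6 measured genes of the LXR and efflux list 0 passed, with a median of -0.06. There Rxra, the partner receptor of LXR, had a change of 0.17 ± 0.08 and Abcg1, a sterol exporter, of -0.11 ± 0.05 (-0.07 without sufficient replicate 1). Of 5 further sterol and isoprenoid enzymes 0 passed (median -0.02), the nearest being Cyb5r3, a reductase that supplies electrons to sterol and fatty acid desaturation (0.24 ± 0.05, adjusted p = 0.0531), ahead of Acat1, a thiolase (0.04 ± 0.05). Cyb5r3 passed in 5 of 15 alternatives. Of 5 genes of SREBP processing and sterol-regulated degradation 0 passed (median 0.05), with Pgrmc1, a heme-binding protein linked to sterol demethylation, at -0.15 ± 0.06 and Fbxw7, a ubiquitin ligase adaptor for SREBPs, at 0.10 ± 0.05.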

How the data were processed

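Gene expression was measured on Affymetrix arrays, from biotin-labelled cRNA made of 6 ug total RNA, per the labels' protocols. RMA made the authors' log2 intensities (submitters' processing notes, no version given), a method of background correction, quantile normalization and probe summary. Log2 values of 22690 probe sets on 6 arrays were deposited, and no scanner files, background levels or batch labels were used here. The platform annotation named 20393 probe sets with 1 gene; 691 with several genes and 1606 unnamed ones were left out. The brightest probe set stood for each of 12394 genes, 4958 of which had several.

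Each gene was tested with limma 3.58.1 (moderated statistics with an intensity trend) under R 4.3.3, deficient minus sufficient, two-sided, with Benjamini-Hochberg adjustment over all genes and a threshold of 0.05. Errors are limma's standard errors or SDs of 3 arrays; a 95% interval uses the moderated t distribution. An exact permutation test of 3 against 3 cannot give a p below 0.1. Probe sets below the 40th percentile of gene means (log2 5.55) are called dim. The number of arrays limits precision, and p-values set the group difference against the spread between these samples, moderated over all genes. The fit was tested on simulated data. Alternatives were the mean of all probe sets, probe sets ending in _x_at or _s_at left out, dim genes left out, renewed quantile normalization, median centring, no trend, robust variance, array weights, the replicate number as a block, and each array left out. Members and lists were chosen with earlier results of these data known. Values by array are given for the 4 members of each role with the smallest p and the 3 members with the widest range; of each list of other pathway genes, the 2 with the smallest p and any past the threshold are named, and of the marker lists those past the threshold. Sequences are RefSeq promoter windows of GRCm38.p6. Python 3.11.15 and matplotlib 3.10.9 made the figures.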

Additional observations from a re-analysis of the deposited data

How the results depend on the processing

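Members past the threshold numbered 0 higher and 0 lower. With array quality weights, dim genes left out, median centring and the replicate block 1 member was higher, in each case Scd2, and 0 to 1 were higher with 1 array left out. Over all genes 179 were higher and 95 lower. Array quality weights gave 400 and 185, no intensity trend 31 and 23, and leaving out 1 array gave 35 to 165 higher and 24 to 105 lower. The smallest weight was that of deficient replicate 1 (0.43), followed by sufficient replicate 1 (0.737). The median of the sterol enzymes lay between 0.05 and 0.17 and that of the fatty acid enzymes between 0.00077 and 0.08 over their alternatives. No pairing is stated, and 3 arrays a group cannot settle whether the replicate numbers pair the arrays. Deviations from the group means correlated over genes at 0.04, -0.02 and 0.07 for same-numbered arrays. For differently numbered arrays they correlated between -0.063 and 0.0153. The replicate block gave 234 higher and 134 lower genes, and Scd2 had an adjusted p of 0.0241 with it.

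Some changes, all of 0.21 or less, turned sign under some settings. The largest were those of Mvd (0.21), Rxra (0.17) and Hmgcs1 (0.11). Array quality weights turned Hmgcs1 (-0.0076), Tm7sf2 (0.0081), Srebf2 (-0.019), Fads1 (0.022) and Fads2 (-0.019). The mean of all probe sets turned Mvk (0.020), Insig2 (0.020), Acly (-0.052), Elovl1 (-0.0080), Elovl6 (-0.035), Scd1 (0.013) and Rxra (-0.031). Without probe sets ending in _x_at or _s_at Mvd (-0.039), Acly (-0.013) and Elovl1 (-0.11) turned, and with repeated quantile normalization Mvk (0.0040) and Sc5d (-0.00075). With 1 array left out the change lay between -0.088 and 0.23 for Hmgcs1, -0.10 and 0.12 for Mvk, -0.057 and 0.00069 for Nsdhl, -0.12 and 0.10 for Sc5d, -0.14 and 0.0062 for Tm7sf2, -0.058 and 0.15 for Srebf2, -0.058 and 0.0011 for Insig2, -0.0052 and 0.10 for Acaca, -0.080 and 0.038 for Elovl5, -0.021 and 0.12 for Elovl6, -0.14 and 0.055 for Scd1, -0.098 and 0.084 for Fads1 and -0.059 and 0.11 for Fads2. The cause was not tested. Without raw scanner files the signal over background is unknown, which limits Acaca, Scd1 and Fads2 most.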

Other observations

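Genes that burn fatty acids were read beside those that make them. Of 13 measured genes of mitochondrial and peroxisomal oxidation 12 had a positive change, against 53.0% of all genes, with a median log2 change of 0.12. Of the 13, 6 had an unadjusted p under 0.05 in limma, against 8.63% of all genes on the higher side. None passed the adjusted threshold in limma with all 6 arrays. Cpt1a, which encodes the rate-controlling carnitine palmitoyltransferase of the mitochondrial outer membrane, read 8.81, 8.83 and 8.55 on deficient arrays, against 8.56, 8.19 and 8.20 on sufficient arrays. Its change was 0.41 ± 0.11 (SE, adjusted p = 0.0867), and without sufficient replicate 1 it was 0.53 (adjusted p = 0.0163). Hadh, the dehydrogenase of short-chain hydroxyacyl-CoA, had a change of 0.20 ± 0.05 (adjusted p = 0.0847) with groups that did not overlap. The list average did not share the low sterol value of sufficient replicate 1, being 0.07, 0.06 and 0.06 on deficient arrays, against -0.03, -0.09 and -0.08 on sufficient arrays.

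Abca1, the sterol exporter and LXR target, was chosen after its values were seen. It read 8.76, 8.66 and 9.20 on deficient arrays, against 9.51, 8.89 and 8.61 on sufficient arrays. Its highest array was sufficient replicate 1, on which the sterol enzymes were lowest, and the groups overlapped (change -0.13 ± 0.21, adjusted p = 0.845 by limma). Over the 6 measured genes of the LXR and efflux list, that array was highest in 2 and lowest in 2. A link to the sterol enzymes was not tested.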
